A study of Arabidopsis thaliana with 30 samples.

Results

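Class III peroxidases of Arabidopsis thaliana were followed in seedlings whose respiratory chain had been blocked. The family was taken as a list of 60 gene identifiers, and each member was looked up in 5 tables of genes that responded to the respiratory inhibitor antimycin A. Of the 60 members, 43 were listed in at least 1 table, among 6297 listed genes in all. Of these 43 members, 33 were listed only as lower and 10 only as higher, and no member was listed as lower in 1 line and higher in another. The remaining 17 members were not listed in any table, which leaves their response unknown and does not show that they were unchanged. They are AT1G05250, AT1G24110, AT1G71695, AT2G18140, AT2G22420, AT3G17070, AT3G28200, AT4G36430, AT5G05340, AT5G06730, AT5G14130, AT5G19880, AT5G51890, AT5G58390, AT5G58400, AT5G64100 and AT5G64110.

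Class III peroxidases are secreted haem enzymes of plants. In the cell wall they use hydrogen peroxide to oxidise phenolic compounds, which couples monolignols into lignin and cross-links extensins, structural glycoproteins of the wall, and some members also generate reactive oxygen species when a pathogen is perceived. In roots, members build the Casparian strip, a lignin band that seals the endodermis, and others are expressed in root hairs.

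Whole seedlings, 10 days old, of 5 lines were compared: the wild type Col-0 (WT), the mutants snrk1a (allele snrk1a-2), jmj15 (allele jmj15-2) and crf6 (allele crf6-2), and SnRK1aOX, a line that overexpresses SnRK1a. CRF6 belongs to the cytokinin response factors, JMJ15 removes methyl groups from histones, and SnRK1 kinases respond to low cellular energy. In each line 3 libraries came from seedlings given 50 µM antimycin A, which inhibits complex III of mitochondria, for 5 h in liquid medium, and 3 from mock-treated seedlings, 30 libraries in all. The labels state neither the promoter of the overexpressor nor the nature of the mutant alleles, and the transcripts of the targeted genes (AT3G01090, AT2G34880 and AT3G61630) were not among the listed genes, so they could not check the line labels.

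The values are read counts normalised by the authors within each table. A gene is listed only if the authors had called it: its q-value is below 0.05 and its log2 fold change is beyond 1 in either direction. Counts of members listed as higher or lower are therefore those of the authors' deposited tables. Changes written with ± subtract the mock mean of log2(normalised count + 1) from the antimycin A mean and carry the SE of a limma refit of 3 against 3 libraries. The refit used the same libraries as the call and is no independent support for it. Whether libraries of a group are separate cultures is not labelled, and the p-values then reflect a spread that may be technical. Sequencing depth per library is unknown. Reads from whole seedlings cannot tell fewer cells of a type apart from less RNA per cell.

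The 250 bases before the annotated start of 4 genes are shown for the words marked in capitals. RHS18, RHS19 and AT4G26010 are 3 of the 5 root hair peroxidases whose window holds a root hair element core, and AT1G14550 had the largest increases. None of the 3 root hair genes passed the refit in WT. Sequences and coordinates are from RefSeq (TAIR10.1) and run 5′ to 3′ toward the gene. In the first 3, capitals mark the loose core of the root hair element, TGNNNNCACG or TGNNNNNCACG on either strand. The whole element is more specific and was not searched, so a marked word need not be one. In AT1G14550 capitals mark the W-box core TTGAC, the word recognised by WRKY transcription factors.
RHS18, chr5:7426060-7426309, strand +: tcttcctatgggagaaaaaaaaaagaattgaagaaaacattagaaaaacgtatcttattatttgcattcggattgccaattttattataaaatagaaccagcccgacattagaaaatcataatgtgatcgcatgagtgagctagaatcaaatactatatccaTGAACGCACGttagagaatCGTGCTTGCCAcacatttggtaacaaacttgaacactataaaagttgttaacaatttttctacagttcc
RHS19, chr5:26894528-26894777, strand +: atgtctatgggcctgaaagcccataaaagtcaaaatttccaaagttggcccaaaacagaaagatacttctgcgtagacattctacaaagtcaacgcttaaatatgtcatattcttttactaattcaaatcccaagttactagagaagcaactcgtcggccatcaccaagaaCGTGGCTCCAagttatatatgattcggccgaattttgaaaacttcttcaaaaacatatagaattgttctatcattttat
AT4G26010, chr4:13200164-13200413, strand +: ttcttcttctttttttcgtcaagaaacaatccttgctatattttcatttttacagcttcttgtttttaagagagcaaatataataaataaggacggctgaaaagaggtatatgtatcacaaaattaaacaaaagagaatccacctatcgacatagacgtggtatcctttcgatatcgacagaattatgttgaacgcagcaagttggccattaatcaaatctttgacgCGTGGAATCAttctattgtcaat
AT1G14550, chr1:4978672-4978921, strand +: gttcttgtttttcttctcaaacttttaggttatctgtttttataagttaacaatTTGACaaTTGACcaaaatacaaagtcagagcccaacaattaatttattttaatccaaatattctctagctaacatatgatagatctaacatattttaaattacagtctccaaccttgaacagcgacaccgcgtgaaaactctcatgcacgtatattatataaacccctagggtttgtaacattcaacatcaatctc
This loose root hair element core was present in 5 of the 8 members grouped as root hair peroxidases. Over all members it was present in 7 of 33 listed as lower, 1 of 10 listed as higher and 2 of 17 not listed, against 9.02% of the same window in 27443 protein-coding genes. The W-box was present in 4 of 10 higher and 14 of 33 lower members, against 44.9% of all genes. The mitochondrial dysfunction motif CTTGNNNNNCANG, searched on both strands, was found in 1 lower member, AT1G68850, against 1.75% of all genes. The G-box CACGTG was found in none of the 60 members, against 6.49% of all genes. In the printed sequences no marked root hair word overlaps a W-box, whereas in AT5G64120, a higher member, the root hair core and a W-box overlap. A match describes these letters only.

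Several libraries stood apart for these genes. In SnRK1aOX the summed normalised count of the 10 members listed as lower was 7649, 20680 and 13960 in mock replicates 1, 2 and 3 and 8584, 3622 and 3903 in treated replicates 1, 2 and 3. Mock replicate 1 was thus the lowest of its group and treated replicate 1 the highest of its own, and these 2 sums crossed. In jmj15 the mean log2(normalised count + 1) of the 21 lower members was 8.81, 9.41 and 8.01 in the mock libraries, so replicate 3 was low and replicate 2 high. In WT the same mean over 31 lower members was 9.76, 9.05 and 9.71 in the mock libraries, with replicate 2 low, and in crf6 mock replicate 2 was low too, at 9.76, 8.81 and 9.78. Markers of root hair cells and of the endodermis also differed between these libraries. The summed count of the listed root hair cell markers was 975, 323 and 1480 in the WT mock libraries. In jmj15 mock it was 309, 284 and 58.5, with replicate 3 low but replicate 2 not the highest. The endodermis markers summed to 364, 957 and 792 in SnRK1aOX mock and to 365, 182 and 177 after treatment. The part of cell makeup in the member values was not tested.

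**Figure D1:**
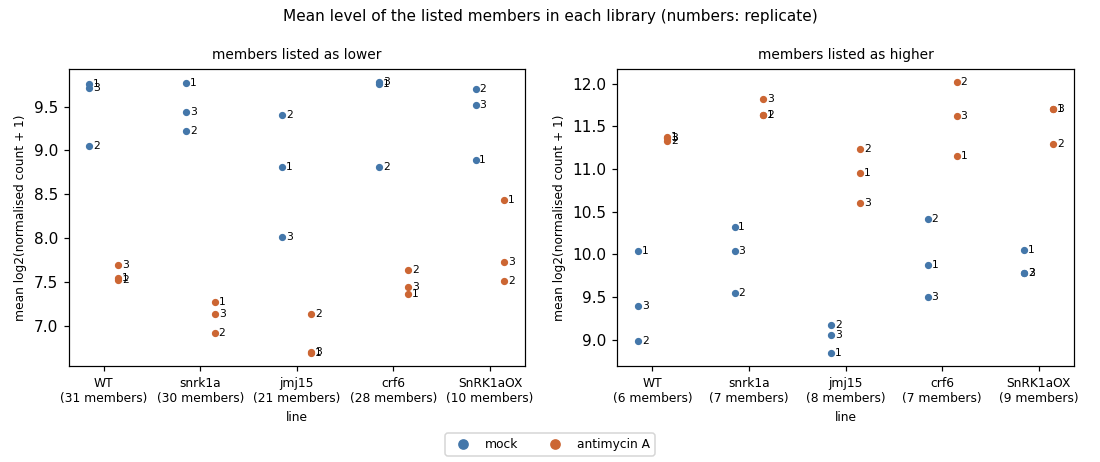
Mean log2(normalised count + 1) over the members listed as lower (left) or higher (right) in each table, 1 point per library, with mock in blue, antimycin A in orange and the replicate number beside the point. Lower members in SnRK1aOX stood at 8.89 in mock replicate 1 and at 8.44 in treated replicate 1, the closest pair of mock and treated libraries in the 5 lines.

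In WT, 37 of the 60 members were listed. Lower were 31 members, 51.7% of the 60, where 8.84% of the 23742 genes tested by the authors were lower. Higher were 6 members, 10% of the 60, where 5.83% of the genes were higher. In the authors' deposited table the median log2 fold change of the lower members was -2.03, against -1.7 for all genes listed as lower, and that of the higher members was 1.46, against 1.5. Treated and mock libraries did not overlap for 33 of the 37 members, as for 95.0% of all listed genes. In the refit 24 lower and 5 higher members passed the threshold of 0.05 on the adjusted p, as did 76.2% of all listed genes. Those that passed as lower had changes from -3.9 to -1.02.

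The snrk1a table listed 37 members, 30 lower and 7 higher, where 10.1% of the tested genes were lower and 7.17% higher. The crf6 table listed 35 members, 28 lower and 7 higher, against 7.71% and 6.97%. The jmj15 table listed 29 members, 21 lower and 8 higher, against 6.04% and 6.63%. The SnRK1aOX table listed 19 members, 10 lower and 9 higher, against 3.67% and 5.55%. As shares of the 60 members, 50% were lower in snrk1a, 46.7% in crf6, 35% in jmj15 and 16.7% in SnRK1aOX, and 11.7%, 11.7%, 13.3% and 15% were higher. In every line the share of lower members was above that of all tested genes. In SnRK1aOX the median of the lower members, -1.26, was smaller in size than that of all lower genes, -1.48, and in the other 4 lines it was larger, all values from the authors' deposited tables. The refit passed 28 lower and 6 higher members in snrk1a (82.4% of all listed genes), 23 and 6 in crf6 (72.7%), 13 and 8 in jmj15 (72.8%) and 3 and 7 in SnRK1aOX (66.9%). Treated and mock libraries did not overlap for 36 of 37 members in snrk1a (96.4% of all listed genes), 31 of 35 in crf6 (93.0%), 26 of 29 in jmj15 (95.7%) and 15 of 19 in SnRK1aOX (95.1%). Rescaling each library by its median ratio over the listed genes moved the median change of all listed genes by 0.832 in WT, 0.784 in snrk1a, 0.215 in crf6, -0.689 in jmj15 and -0.909 in SnRK1aOX on the log2 scale. Under that rescaling the lower and higher members that passed were 12 and 6 in WT, 16 and 7 in snrk1a, 27 and 7 in crf6, 19 and 6 in jmj15 and 9 and 2 in SnRK1aOX. All listed genes moved with it, since 13.7% passed as lower and 38.4% as higher in WT, 15.9% and 40% in snrk1a, 33.1% and 43.7% in crf6, 44.1% and 24.5% in jmj15 and 36.8% and 9.56% in SnRK1aOX. The number of members listed was not tested between lines, and the members absent from the SnRK1aOX table have no values there.

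**Figure D2:**
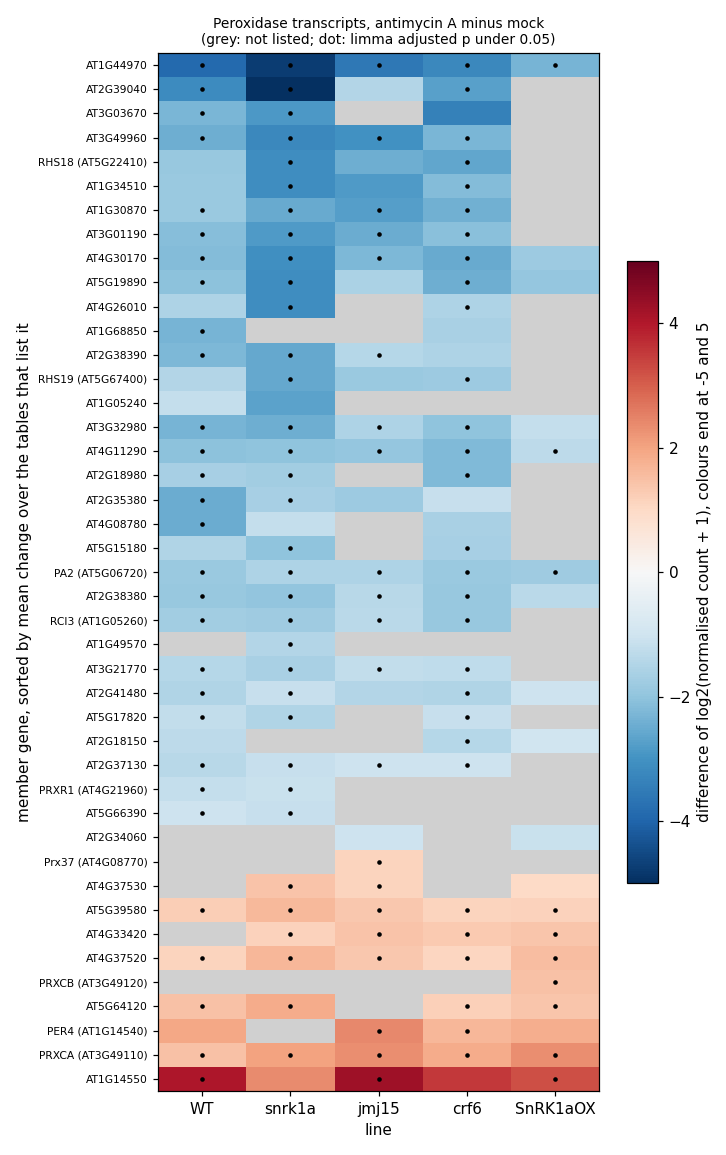
Change of each of the 43 listed members (rows) in the 5 lines (columns), as the difference of log2(normalised count + 1) between antimycin A and mock; blue is lower, red is higher, grey is not listed, and a dot marks a limma adjusted p under 0.05. The 33 lower members fill the upper rows and the 10 higher members the lower rows, and the SnRK1aOX column has 19 filled cells.

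The Casparian strip peroxidases were lower. Like the other role groups, this one was chosen with earlier results of these data known. All 4 members of this group were listed as lower in WT and in snrk1a, 3 in jmj15 and in crf6 and 2 in SnRK1aOX. Every listed change passed the refit, where between 66.9% and 82.4% of all listed genes did. AT1G44970 (chromosome 1) had the largest decrease among members in WT. Its normalised counts were 245, 160 and 189 in WT mock and 18.2, 12 and 7.97 in treated libraries. In snrk1a they were 273, 186 and 237 in mock and 6, 11 and 6.22 after treatment. In SnRK1aOX they were 103, 203 and 234 in mock and 45.8, 24.6 and 33.0 after treatment. Every treated library lay far below every mock library in these 3 lines. The change was -3.90 ± 0.39 in WT (limma adjusted p = 0.00034). It was steeper in snrk1a, at -4.77 ± 0.38, and stood at -3.58 ± 0.39 in jmj15, at -3.22 ± 0.40 in crf6 and at -2.31 ± 0.41 in SnRK1aOX.

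AT4G11290, another Casparian strip peroxidase, also fell in all 5 lines. In WT it read 952, 750 and 846 in mock libraries and 190, 204 and 216 in treated libraries, which were tightly grouped. Its change was -2.05 ± 0.18 in WT, -2.20 ± 0.20 in crf6, -2.01 ± 0.37 in snrk1a, -1.93 ± 0.25 in jmj15 and -1.30 ± 0.22 in SnRK1aOX. RCI3 (AT1G05260), annotated with responses to cold and desiccation, read 1596, 966 and 2001 in WT mock and 358, 480 and 492 after treatment. It fell in the 4 lines that listed it, by between -1.36 ± 0.32 in jmj15 and -1.89 ± 0.25 in crf6. AT5G66390, annotated as PRX72, was listed in WT and snrk1a only, with changes of -1.02 ± 0.20 and -1.16 ± 0.28.

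**Figure D3:**
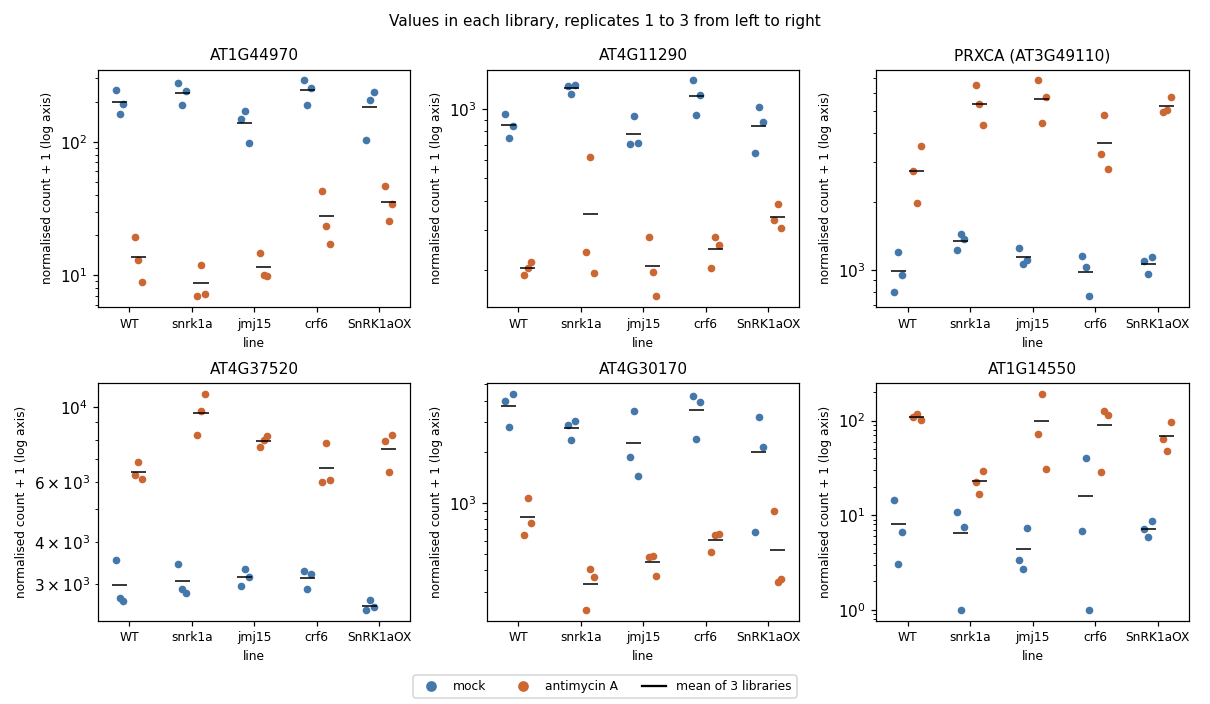
Normalised count + 1 on a log axis in each library of 6 members, by line, with mock in blue, antimycin A in orange and a bar at the mean of 3 libraries. AT1G44970 and AT4G11290 were lower and PRXCA and AT4G37520 higher after treatment in every line, whereas AT4G30170 overlapped in SnRK1aOX and AT1G14550 in crf6.

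The 8 root hair peroxidases were all listed as lower in WT and in snrk1a, 7 were in crf6 and 5 in jmj15, and none of the 8 was listed in SnRK1aOX. The refit passed 4 of 8 in WT, 7 of 8 in snrk1a, 7 of 7 in crf6 and 3 of 5 in jmj15. Of all listed genes 76.2%, 82.4%, 72.7% and 72.8% passed in the same order. RHS19 (AT5G67400), a root hair specific gene by its annotation, read 1093, 383 and 1768 in WT mock and 250, 385 and 370 after treatment. The low mock replicate 2 overlapped the treated libraries, and the change of -1.46 ± 0.48 did not pass (adjusted p = 0.11). In snrk1a RHS19 read 1028, 623 and 846 in mock and 245, 83.9 and 126 after treatment, without overlap, a change of -2.56 ± 0.37 (adjusted p = 0.0012). RHS18 (AT5G22410) behaved alike, with -1.91 ± 0.62 in WT, not past the threshold, and -3.12 ± 0.48 in snrk1a and -2.59 ± 0.52 in crf6, both past it. In jmj15 libraries overlapped for both genes and neither passed, with -2.44 ± 0.89 for RHS18 and -1.86 ± 0.84 for RHS19, while RHS19 fell by -1.82 ± 0.30 in crf6.

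AT3G49960 had 653, 159 and 775 in WT mock and 51.8, 89.2 and 104 after treatment, with no overlap in spite of the low replicate 2. It fell in all 4 lines that listed it, by -2.45 ± 0.56 in WT, -2.28 ± 0.34 in crf6, -3.24 ± 0.38 in snrk1a and -3.02 ± 0.76 in jmj15. AT3G01190 fell in the same 4 lines, with -2.11 ± 0.26 in WT and -2.85 ± 0.38 in snrk1a, and so did AT1G30870, with -1.87 ± 0.38 in WT and -2.74 ± 0.65 in jmj15. AT4G26010 was listed in 3 lines, with -1.54 ± 0.46 in WT, which did not pass, -3.11 ± 0.41 in snrk1a and -1.53 ± 0.31 in crf6. AT5G17820 had the smallest changes of the group that passed, from -1.15 ± 0.30 in crf6 to -1.50 ± 0.26 in snrk1a.

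AT1G05240 is the exception in reliability. In snrk1a its mock libraries read 785, 5.11 and 13.5 and its treated libraries 14.4, 0.426 and 11.5, so that 1 library carried nearly all of the signal. The authors' deposited table gives a log2 fold change of -4.93, whereas the refit gave -2.66 ± 1.63 (adjusted p = 0.78), and without mock replicate 1 it gave -0.54 ± 1.07. In WT it read 23.7, 20.3 and 36.0 against 12.2, 8.79 and 12, a change of -1.18 ± 0.43 that did not pass. Its coding sequence is 100% identical to that of its neighbour PRX2 (AT1G05250), which was not listed, so reads of the 2 genes cannot be assigned with certainty.

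Members with no root hair or Casparian role in these groups also fell. AT4G30170 was listed in all 5 lines, with 4016, 2806 and 4378 in WT mock and 646, 1071 and 755 after treatment. Its change was -2.19 ± 0.23 in WT, -2.51 ± 0.23 in crf6, -3.07 ± 0.23 in snrk1a and -2.25 ± 0.30 in jmj15. In SnRK1aOX its libraries read 670, 3204 and 2137 in mock and 893, 339 and 354 after treatment, an overlap set by the replicate 1 libraries, and the change of -1.80 ± 0.61 did not pass. AT5G19890 and AT3G32980 showed the same arrangement in SnRK1aOX. AT5G19890 read 2754, 1379 and 5236 in WT mock and 458, 627 and 965 after treatment, a change of -2.05 ± 0.44 that passed, against -1.93 ± 0.81 in SnRK1aOX, which did not. It fell by -3.09 ± 0.34 in snrk1a and by -2.46 ± 0.30 in crf6, and its -1.59 ± 0.45 in jmj15 did not pass. AT3G32980 read 3262, 8721 and 5820 there against 4093, 1731 and 1909, while in WT it read 12665, 8605 and 8772 against 2156, 1521 and 2341. Its change was -2.32 ± 0.21 in WT and -1.20 ± 0.43 in SnRK1aOX, the latter not past the threshold. AT2G38380 stood at -1.88 ± 0.17 in WT and at -1.33 ± 0.49 in SnRK1aOX. With both replicate 1 libraries of SnRK1aOX left out, an alternative chosen after seeing the data, fewer libraries remained in each group. These members then stood at -2.91 ± 0.26 (AT4G30170), -3.36 ± 0.49 (AT5G19890), -1.97 ± 0.25 (AT3G32980) and -2.18 ± 0.26 (AT2G38380), and all 4 passed. The libraries were picked because lower members crossed in them, so this passing is no support for the changes. Of all 2187 listed genes 330 passed as lower without these libraries, where 548 had. Of the other lower members, PRX25, AT2G18150 and AT2G34060 still did not pass. Among the higher members, AT1G14540 and AT4G37530 still did not, and AT4G33420 no longer did (adjusted p = 0.055 in limma).

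The steepest refitted change of any member was that of AT2G39040 in snrk1a. Its counts were 103, 100.5 and 127 in mock and 3.30, 0.0773 and 0.124 after treatment, a change of -6.00 ± 0.61 that the added 1 understates. In WT it read 186, 60 and 252 against 16.2, 13.1 and 15.9, a change of -3.15 ± 0.53. In jmj15 a mock library at 6.81 overlapped the treated ones and the change of -1.46 ± 0.94 did not pass. AT3G03670 in crf6 stood at -3.39 ± 1.02 and overlapped as well, with mock libraries at 50.7, 6.08 and 74.0, whereas its -2.30 ± 0.47 in WT and -2.87 ± 0.62 in snrk1a passed. AT1G34510 was listed in 4 lines, and passed in snrk1a, at -3.11 ± 0.54, and in crf6, at -2.15 ± 0.34. In jmj15 it read 136, 102 and 17.5 against 4.28, 13.1 and 8.89, a change of -2.82 ± 0.79 that did not pass. AT1G68850 read 85.5, 94.3 and 109 in WT mock and 31.4, 21.8 and 8.96 after treatment, a change of -2.32 ± 0.47 that passed, and its -1.61 ± 0.45 in crf6 did not. AT2G35380 read 208, 268 and 279 in WT mock and 54.7, 24.4 and 61.8 after treatment, and fell by -2.49 ± 0.38 there and by -1.66 ± 0.31 in snrk1a. In jmj15 it stood at -1.83 ± 0.61 and in crf6, where a treated library at 126 overlapped a mock library at 103, at -1.14 ± 0.44, and neither passed. AT3G21770 fell in the 4 lines that listed it, from -1.22 ± 0.22 in jmj15 to -1.64 ± 0.20 in snrk1a. AT1G49570 was listed in snrk1a only (-1.47 ± 0.29).

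PRXR1 (AT4G21960) was the most abundant listed member per length. In WT mock it stood at 29297 ± 1309 normalised counts per kb of transcript (SD, n = 3), followed by AT5G64120 at 8305 ± 2271, AT2G37130 at 7543 ± 1236 and AT3G32980 at 6498 ± 1491, and the ranges of these last 3 overlap. PRXR1 changed by -1.19 ± 0.14 in WT and by -1.12 ± 0.18 in snrk1a and was not listed elsewhere. AT2G37130, annotated with defence against fungi, fell in 4 lines, with changes between -1.05 ± 0.14 in jmj15 and -1.40 ± 0.16 in WT. AT1G14550, at 5.80 ± 4.81 per kb, was the least abundant listed member in WT mock.

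The group of 10 members linked to the apoplastic oxidative burst and defence held most of the higher members. The group was chosen with earlier results of these data known, so this is no independent finding. Of all tested genes between 5.55% and 7.17% were higher and between 3.67% and 10.1% lower in the 5 lines. In WT 5 of its members were listed as higher and 2 as lower, in crf6 5 and 2, in snrk1a 4 and 2, in jmj15 5 and 1 and in SnRK1aOX 6 and 1. PRXCA (AT3G49110), a source of reactive oxygen in the apoplastic burst, rose in all 5 lines. It read 799, 1198 and 945 in WT mock and 2720, 1974 and 3514 after treatment. In jmj15 it read 1251, 1056 and 1101 against 6850, 4436 and 5792, and in SnRK1aOX 1089, 954 and 1134 against 4950, 5087 and 5795. Treated libraries were above all mock libraries in each line. The change was 1.46 ± 0.23 in WT, 1.86 ± 0.23 in crf6, 2.00 ± 0.18 in snrk1a, 2.31 ± 0.17 in jmj15 and 2.32 ± 0.15 in SnRK1aOX. Its near copy PRXCB (AT3G49120, 90.7% coding identity), also of the burst, was listed in SnRK1aOX only, with 3379, 3201 and 3548 in mock and 11135, 7894 and 9237 after treatment, a rise of 1.47 ± 0.17.

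AT1G14550, whose upstream sequence is printed above, had the largest increase of any member. It read 13.5, 2.05 and 5.61 in WT mock and 109, 118 and 99.7 after treatment, a rise of 4.04 ± 0.57 (adjusted p = 0.0014). It rose by 4.22 ± 0.73 in jmj15 and by 3.22 ± 0.41 in SnRK1aOX. In snrk1a it read 9.73, 0 and 6.57 against 21.6, 15.7 and 28.7 and the change of 2.37 ± 0.84 did not pass. In crf6 a mock library at 38.9 overlapped a treated one at 27.5, and 3.53 ± 1.23 did not pass. Its neighbour PER4 (AT1G14540), like it induced by microbial elicitors, stood at 1.95 ± 0.54 in WT and 1.82 ± 0.52 in SnRK1aOX, neither past the threshold, and rose by 2.39 ± 0.53 in jmj15 and 1.68 ± 0.37 in crf6.

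PRX71 (AT5G64120), which acts in lignification and is annotated with the respiratory burst, read 13983, 7923 and 11529 in WT mock and 29451, 33332 and 28172 after treatment. It rose by 1.48 ± 0.21 in WT, 1.85 ± 0.24 in snrk1a, 1.17 ± 0.18 in crf6 and 1.39 ± 0.18 in SnRK1aOX, and it was not listed in jmj15. AT5G39580, annotated with defence against fungi, rose in all 5 lines, from 1.11 ± 0.23 in crf6 to 1.62 ± 0.18 in snrk1a. Among the 2 lower members of the group, PA2 (AT5G06720, also PRX53) fell in all 5 lines, by between -1.56 ± 0.27 in jmj15 and -1.85 ± 0.25 in WT. AT4G08780 was listed in 3 lines and passed in WT, at -2.48 ± 0.42. The annotated process "defense response to fungus" was carried by 4 of 10 higher members, 1 of 33 lower members and 0 of 17 not listed. The 4 are PRXCA with PRXCB and AT5G39580 with PRX71, each the closest member of the other by coding sequence. "Defense response to bacterium" was carried by 2 of 10 higher and 0 of 33 lower members. "Respiratory burst" was carried by 1 and 0 and "response to salt stress" by 1 and 2. The shares over all genes were not computed.

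Outside that group AT4G37520 rose in all 5 lines. It read 3531, 2733 and 2676 in WT mock and 6282, 6878 and 6125 after treatment, with little spread. Its change was 1.12 ± 0.15 in WT, 1.07 ± 0.14 in crf6, 1.65 ± 0.17 in snrk1a, 1.33 ± 0.11 in jmj15 and 1.53 ± 0.15 in SnRK1aOX. Its neighbour AT4G37530, 92.4% identical in coding sequence, rose in snrk1a (1.42 ± 0.19) and jmj15 (1.1 ± 0.15) and stood at 0.98 ± 0.23 in SnRK1aOX, which did not pass. AT4G33420 rose in the 4 lines other than WT, where it was not listed, by between 1.17 ± 0.18 in snrk1a and 1.43 ± 0.17 in jmj15. Its rise of 1.37 ± 0.20 in SnRK1aOX became 1.17 ± 0.22 and did not pass without both replicate 1 libraries.

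Of the 4 vascular lignin peroxidases only PRX25 (AT2G41480) was listed, as lower in all 5 tables, and PRX52 (AT5G05340), AT2G22420 and AT5G51890 were in none. PRX25 read 216, 152 and 186 in WT mock and 68.9, 64.3 and 58.8 after treatment. Its changes of -1.50 ± 0.27 in WT, -1.15 ± 0.33 in snrk1a and -1.51 ± 0.30 in crf6 passed, and those of -1.45 ± 0.52 in jmj15 and -1.02 ± 0.29 in SnRK1aOX did not.

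Prx37 (AT4G08770), an enzyme that cross-links wall phenolics, and AT4G08780 are adjacent genes with 93.8% coding identity, listed in opposite directions and in different lines. Prx37 was listed as higher in jmj15, with 643, 1229 and 559 in mock and 1885, 1648 and 1459 after treatment (1.12 ± 0.28). AT4G08780 was listed as lower in WT, with 459, 336 and 236 against 109, 45.0 and 40.8, and it was absent from the jmj15 table. No line listed both. Reads could be split between such copies. With the 14 members left out whose closest member shares at least 85% of the coding sequence, which was chosen after seeing the data, 25 lower and 4 higher of 46 members were listed in WT, 25 and 4 in snrk1a, 23 and 5 in crf6, 18 and 4 in jmj15 and 7 and 5 in SnRK1aOX.

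The RefSeq notes name the root as a site of expression for 19 of 33 lower members, 6 of 10 higher members and 3 of 17 members not listed. They give broad expression for 10 of 33 lower, 3 of 10 higher and 9 of 17 members not listed. By coding sequence the closest member of a higher gene was higher in 8 of 10 cases, and that of a lower gene was lower in 23 of 33. Of the 60 members 10 were higher and 33 lower. All 8 higher cases come from genes that are each other's closest member, so each pair is counted from both sides. Among them are PRXCA with PRXCB and AT4G37520 with AT4G37530, near copies between which reads could be split.

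**Figure D4:**
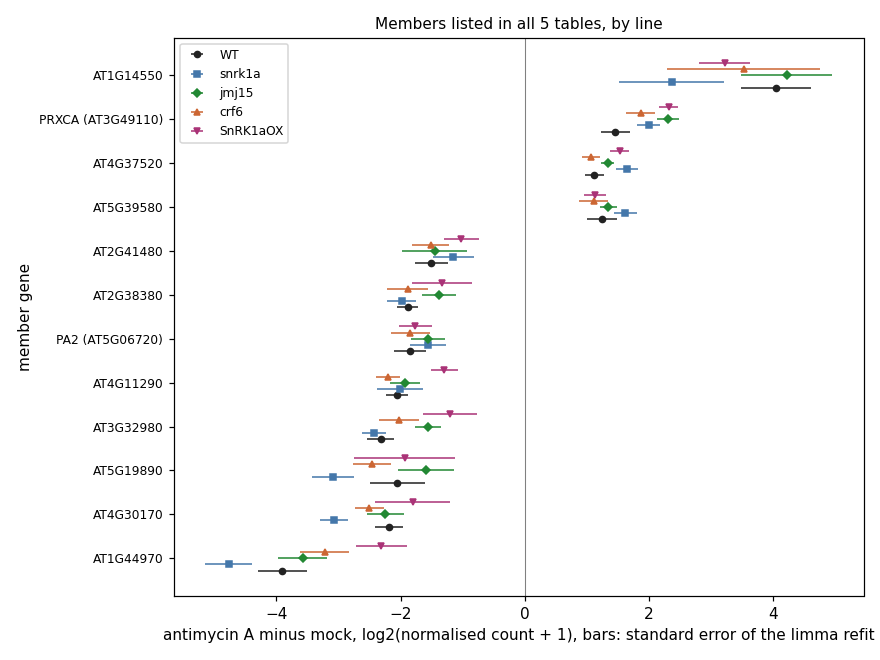
Change of the 12 members listed in all 5 tables, antimycin A minus mock on the log2(normalised count + 1) scale, with 1 symbol per line and bars of 1 standard error of the limma refit. The 4 higher members lie right of 0 and the 8 lower members left of it in every line, and AT1G44970 ranges from -4.77 in snrk1a to -2.31 in SnRK1aOX.

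The difference of the within-table changes was tested to ask whether a line altered the response of a member. All comparisons with WT share its libraries. Each was tested over the genes listed in both tables, so members with large changes in both lines are over-represented. No member passed an adjusted p of 0.05 in limma in any of the 5 comparisons with the authors' scaling. Of the genes listed in both tables, 0% passed for snrk1a against WT, 2.24% for jmj15 against WT, 0% for crf6 against WT, 0.131% for SnRK1aOX against WT and 0.0635% for SnRK1aOX against snrk1a. At an unadjusted p under 0.05 there were 4 of 34 members, 2 of 25, 0 of 34, 3 of 15 and 2 of 15 in the same order, against 7.54%, 14.2%, 4.51%, 9.67% and 10% of all genes listed in both tables. Under the median ratio rescaling 13 of 25 members passed as lower in jmj15 against WT, 11 of 15 in SnRK1aOX against WT and 8 of 15 in SnRK1aOX against snrk1a, where 63.4%, 76.3% and 74.4% of all genes listed in both tables did.

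AT1G44970 had the largest difference between SnRK1aOX and snrk1a, the overexpressor and the mutant of the kinase. The change was 2.46 ± 0.55 less negative in SnRK1aOX (95% interval 1.26 to 3.65, adjusted p = 0.18), and 1.59 ± 0.57 less negative than in WT (adjusted p = 0.37). Neither difference passed, and under the median ratio rescaling the one from WT turned to -0.10. AT2G39040 was 2.85 ± 0.84 more negative in snrk1a than in WT, written as -2.85 (95% interval -4.65 to -1.04, adjusted p = 0.55). PRXCA rose 0.85 ± 0.31 more in jmj15 than in WT (95% interval 0.17 to 1.52, adjusted p = 0.20) and 0.86 ± 0.30 more in SnRK1aOX than in WT (adjusted p = 0.34), and under the rescaling these turned to -0.68 and -0.89. For PA2 the differences from WT were between 0.00 in crf6 (95% interval -0.87 to 0.87) and 0.29 in jmj15 (-0.49 to 1.08).

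Genes that act with peroxidases were mixed. NADPH oxidases supply the superoxide from which hydrogen peroxide forms in the wall. Of 10, 1 was listed as lower in WT, 2 in crf6, 2 in snrk1a, 1 in jmj15 and 1 in SnRK1aOX, and 0, 0, 1, 2 and 1 as higher. AT4G25090 fell, with -3.05 ± 0.25 in WT, and RBOHC (AT5G51060), the NADPH oxidase of root hair growth, rose by 1.3 ± 0.25 in snrk1a and 1.20 ± 0.26 in jmj15. Of 17 laccases, which also couple monolignols, 9 were lower in WT, 8 in crf6, 7 in snrk1a, 6 in jmj15 and 4 in SnRK1aOX, and 1 was higher, in WT. LAC3 (AT2G30210) fell in all 5 lines, by -3.31 ± 0.21 in WT. Of 18 monolignol synthesis genes, 2, 2, 1, 2 and 1 were lower and 0, 1, 1, 1 and 1 higher in the order WT, snrk1a, jmj15, crf6 and SnRK1aOX. Of 9 extensins, which peroxidases cross-link, 7, 6, 6, 6 and 1 were lower in that order and 0 were higher in each. Of 13 genes for intracellular peroxide removal and superoxide dismutation, only APX2 (AT3G09640), a cytosolic ascorbate peroxidase, was listed. APX2 rose in 4 lines, by 5.89 ± 0.49 in WT and 2.24 ± 0.36 in SnRK1aOX. In WT it was at 0 in every mock library and between 39.6 and 79.7 after treatment, so the size there depends on the added 1. In SnRK1aOX it stood between 7.2 and 10.1 in mock and between 38.3 and 51.1 after treatment.

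Of 5 regulators of peroxidase genes, RSL4 (AT1G27740), the transcription factor that drives root hair growth, was lower in 4 lines and not listed in SnRK1aOX. It fell by -3.11 ± 0.58 in snrk1a, -2.66 ± 0.49 in jmj15 and -2.43 ± 0.37 in crf6 and stood at -1.27 ± 0.52 in WT, which did not pass. The 5 root hair cell markers were lower in 4, 5, 3, 4 and 0 cases in the order WT, snrk1a, jmj15, crf6 and SnRK1aOX. RSL4 and RHD6 (AT1G66470) are among both the regulators and these markers, so the lists are not separate. The listed sum of the markers in treated snrk1a libraries lay between 53.5 and 174, against 515 to 951 in mock. Of the 7 endodermis markers 4, 5, 4, 4 and 4 were lower. Of 5 xylem markers 3 were lower in WT and 0 in each other line, and of 6 green tissue markers 1, CA1, was higher in WT, crf6 and SnRK1aOX. No marker list member was at 0 in all treated libraries of a table. The root hair and endodermis markers that were listed were lower, as were the root hair and Casparian strip peroxidases, whereas CA1 was higher, and the part of these cell types in the member changes was not tested.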

How the data were processed

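Sequencing covered RNA from whole seedlings, 30 libraries in 10 groups. Reads were aligned with Bowtie 0.12.2 to TAIR10, per the submitters' processing notes. Tools for counting, normalisation and testing: not given in the sources used here. For each line the authors deposited a signal (a count normalised within the table, per the file headers and the values), a log2 fold change, a p-value, a q-value and for some lines a −log10 of the q-value, and listed called genes only. Columns named kin10-2 and KIN10V17 were assigned to snrk1a and SnRK1aOX from the other name of the kinase, KIN10, which no label states.

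The authors' calls were kept. Sizes and standard errors came from limma 3.58.1 (R 4.3.3) on log2(value + 1) with trend, two-sided, with Benjamini-Hochberg adjustment over the number of genes that the deposited q-values imply. Differences between lines were fitted in limma and adjusted over genes listed in both tables. On simulated data with a log2 change of 2, between 98% and 99% of changed genes were recovered for responses, and between 94.1% and 97.7% for differences, with 8 to 13 false calls in each difference. The simulation gave every gene the same spread between libraries, changed no gene of low level and left most genes unchanged. It therefore does not give the power for members with a larger spread. Over listed genes that were not low, deviations of same-numbered treated and mock libraries from their group means correlated between -0.358 and 0.107. This showed no pairing by number, and it cannot show that there was none. Levels were not compared across tables, which were normalised separately.

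Members named are those in all 5 tables, those listed as higher, the 5 lowest and highest of each table and those of the 4 role groups. AT1G49570, AT1G68850, AT2G37130, AT3G21770 and PRXR1 were chosen after their values were seen. Members and lists were chosen with earlier results of these data known. Alternatives were the pseudocount, a filter on low values, scaling, the trend, the adjustment, the replicate block and leaving out libraries. Promoter windows and coding identities were computed with Biopython 1.88 from RefSeq TAIR10.1. Columns headed with KIN10, another name of SnRK1a, were taken as the snrk1a and SnRK1aOX libraries, which no label states.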

Additional observations from a re-analysis of the deposited data

How the results depend on the processing

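Counts are members that passed the limma refit. Median ratio scaling, computed over called genes only, gave 12 lower members in WT, 16 in snrk1a, 9 in SnRK1aOX and 2 higher members in SnRK1aOX. It also made 13 members lower in jmj15 against WT, 11 in SnRK1aOX against WT and 8 in SnRK1aOX against snrk1a, where 0 had passed. In the same order 63.4%, 76.3% and 74.4% of all genes listed in both lines passed as lower. The scaling moved the median change of all listed genes by 0.832 in WT, 0.784 in snrk1a, -0.689 in jmj15 and -0.909 in SnRK1aOX. Whether members moved apart from all listed genes was not tested. With this shift AT1G44970 (-0.10), PRXCA (-0.89) and AT4G11290 (-0.99) reversed in SnRK1aOX against WT. So did AT3G32980 in SnRK1aOX against snrk1a (-0.47), and AT3G32980 (-0.77) and PRXCA (-0.68) in jmj15 against WT. Without the trend 8 lower members passed in jmj15, and 919 of all 3008 listed genes did as lower. Adjusting over fewer genes, those listed, gave 10 lower members in SnRK1aOX, where 840 of all 2187 listed genes passed as lower. Chosen after seeing the data, leaving out near-identical copies, which leaves fewer members, gave 3 higher members in WT, 3 in snrk1a, 4 in jmj15 and 4 in SnRK1aOX, and leaving out both replicate 1 libraries of SnRK1aOX gave 7 lower members. Without both of these libraries 330 of all 2187 listed genes passed as lower. Of the 157 member responses none changed sign under any alternative. The listing rule, a log2 fold change beyond 1, made a change of sign unlikely from the start, so this is no support for the calls. The pseudocounts and the filter moved no count by over 1.5 times.

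Leaving out 1 library at a time gave 18 to 27 lower and 4 to 6 higher members in WT, 24 to 27 and 6 in snrk1a, 6 to 14 and 6 to 8 in jmj15, 13 to 27 and 4 to 7 in crf6, and 1 to 4 and 6 to 8 in SnRK1aOX, and 0 in every difference. Of all 3481 genes listed in WT, 1144 to 1380 passed as lower and 869 to 1064 as higher. Of 4115 in snrk1a 1453 to 1791 and 1232 to 1381 did, and of 3008 in jmj15 686 to 784 and 1006 to 1168. Of 3491 in crf6 750 to 1296 and 1094 to 1258 did, and of 2187 in SnRK1aOX 262 to 468 and 316 to 772. In jmj15, 6 lower members passed without treated replicate 1 and 7 without treated replicate 3, where 13 had with all libraries. Of all genes listed there 696 and 740 passed as lower, where 926 had. In crf6, 13 members passed without mock replicate 1 or 3, where 23 had, and 750 and 757 of all listed genes did, where 1204 had. In SnRK1aOX, 1 member passed, where 3 had, without treated replicate 2, treated replicate 3 or mock replicate 3. Of all genes listed there 262, 387 and 329 passed as lower, where 548 had.

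With the replicate block, 29 lower and 6 higher members passed in WT, 29 and 7 in snrk1a, 16 and 8 in jmj15, 18 and 6 in crf6, 2 and 8 in SnRK1aOX, and 0 in each difference. Of all listed genes 1437 passed as lower and 1081 as higher in WT, 2011 and 1470 in snrk1a and 878 and 1213 in jmj15. In crf6 912 and 1183 of them passed, and in SnRK1aOX 355 and 663. Whether the numbers pair the libraries is not labelled. Depth per library is unknown, so no counting error could be given, and members outside the tables could not be tested.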

Other observations

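RefSeq notes name 74 genes as peroxidases of this family, 14 of them outside the 60 members. Of these 14, 4 were listed, all as lower. PER64 (AT5G42180), which acts in Casparian strip lignification, had log2 fold changes in the authors' deposited tables of -3.77 in snrk1a, -3.27 in jmj15, -2.95 in WT, -2.83 in crf6 and -2.31 in SnRK1aOX. AT2G24800 stood between -2.70 in crf6 and -1.77 in WT and AT5G40150 between -1.77 in snrk1a and -1.34 in SnRK1aOX in the authors' deposited tables. AT5G47000 was listed in WT and snrk1a, at -1.88 and -3.36 in the authors' deposited tables.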
